A study of Mus musculus with 383 samples.

Results

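The 4 opioid receptor genes of the mouse are described here in single nuclei of the dorsal motor nucleus of the vagus: Oprm1, which encodes the mu receptor, Oprk1, the kappa receptor, Oprd1, the delta receptor, and Oprl1, the receptor for nociceptin. They were taken by symbol, 4 of the 29779 genes in the count table, and all 4 had reads. The brainstem nucleus sampled holds the cell bodies of the parasympathetic motor neurons whose axons run in the vagus nerve to the gut and other organs, and the series title names brain-to-gut signalling through vagal neurons. The nuclei form 1 group with no treatment contrast: male Chat-IRES-Cre mice on a C57BL/6 background, in which Cre recombinase is made wherever choline acetyltransferase is, were given 100 nL of AAV9-DIO-H2b-mCherry into the nucleus at 10 weeks of age. Tissue was taken 16 days later, at about 12 weeks, and combined, and single nuclei were sorted into plates by mCherry and by the DNA dye NucBlue. All nuclei therefore carry the Cre driver and the reporter virus, non-cholinergic cells should be absent only as far as Cre and the sort excluded them, and no animal is named for any nucleus. The collection protocol speaks of sections around the SCN although the labelled tissue is the vagal motor nucleus, and that was not resolved.

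Opioid receptors are G protein-coupled receptors that act through the Gi/o class of G proteins. Once bound, they lower adenylyl cyclase activity, open GIRK potassium channels and close presynaptic calcium channels, so that neurons fire less and release less transmitter. Their peptides are cut from 4 precursors: enkephalins from Penk act mainly on delta and mu receptors, dynorphins from Pdyn on kappa, beta-endorphin from Pomc on mu and delta, and nociceptin from Pnoc on the nociceptin receptor. Opioids are known for slowing the gut and for depressing brainstem autonomic circuits.

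Of 383 nuclei, 316 had a read on at least 1000 genes and were retained. They had 1590 to 4699420 reads, with a median of 1440075, and a median of 11234.5 genes with a read. The 295 nuclei with at least 500000 reads were also thinned to that number at random, and every share compared between sets of nuclei comes from these thinned counts. The labelled cell type held: the median share of retained nuclei with a read was 98.7% over 5 neuronal markers and 94.8% over 6 cholinergic markers. It was 35.4% over 6 oligodendrocyte, 22.8% over 6 astrocyte and 11.1% over 5 microglial markers. Of the markers of other neurons, it was highest over 5 catecholaminergic ones, at 41.8%, with 2 of them over 50%. It was 18.0% over 3 glutamatergic, 17.7% over 4 inhibitory and 15.0% over 4 serotonergic markers. By markers, 292 nuclei were visceral motor-like and 24 somatic motor-like. The whole set counts as 1 sample, so no hypothesis test was run. Shares carry exact Clopper-Pearson 95% intervals, and levels, as reads of the gene per 1000000 reads of all nuclei of a set (RPM), carry exact Poisson 95% intervals. These intervals hold for the counting alone, because the libraries were amplified and had no molecular identifiers.

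The 4 genes differed in length, and the sequence around the start is given for 3 of them. Oprm1 spans 279.693 kb at chr10:6758506-7038198 (plus strand), Oprd1 33.761 kb at chr4:132110726-132144486 (minus strand), Oprk1 17.666 kb at chr1:5588466-5606131 (plus strand) and Oprl1 5.97 kb at chr2:181715016-181720985 (plus strand), all on build GRCm38. The 300 bases around a start are printed below for Oprm1, Oprl1 and Oprd1, from RefSeq on GRCm38.p6. RefSeq windows were matched for 3 of the 4 genes, and not for Oprk1, the receptor found in fewest nuclei. A relation between these sequences and detection was not tested. Of the 3 windows each of Oprm1 and Oprl1, the one with most CG is shown. Capitals mark CG dinucleotides, the pairs of bases at which mammalian DNA is methylated, and each sequence reads 5′ to 3′ along the gene's own strand.
Oprm1, chr10:6788326-6788625, plus strand: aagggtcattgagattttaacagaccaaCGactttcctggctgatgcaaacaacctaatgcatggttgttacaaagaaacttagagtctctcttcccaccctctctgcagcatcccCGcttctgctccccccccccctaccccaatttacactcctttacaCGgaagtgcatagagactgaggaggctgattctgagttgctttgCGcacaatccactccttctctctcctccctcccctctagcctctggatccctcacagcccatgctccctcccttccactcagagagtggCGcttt
Oprl1, chr2:181714766-181715065, plus strand: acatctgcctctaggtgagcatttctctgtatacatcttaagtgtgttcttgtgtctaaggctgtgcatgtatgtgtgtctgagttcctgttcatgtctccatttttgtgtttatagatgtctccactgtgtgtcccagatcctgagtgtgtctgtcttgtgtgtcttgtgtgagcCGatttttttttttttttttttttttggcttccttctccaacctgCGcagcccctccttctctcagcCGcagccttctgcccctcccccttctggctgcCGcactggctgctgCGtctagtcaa
Oprd1, chr4:132144437-132144736, minus strand: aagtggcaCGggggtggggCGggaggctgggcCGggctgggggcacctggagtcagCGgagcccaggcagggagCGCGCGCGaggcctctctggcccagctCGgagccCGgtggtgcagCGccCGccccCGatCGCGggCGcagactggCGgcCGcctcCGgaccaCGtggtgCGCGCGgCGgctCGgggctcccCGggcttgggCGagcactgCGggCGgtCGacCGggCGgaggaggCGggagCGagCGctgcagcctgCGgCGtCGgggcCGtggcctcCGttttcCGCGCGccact
The Oprd1 window held 43 CG and 79.3% G or C. The Oprm1 window held 5 CG at 52.3% G or C, and the Oprl1 window also 5, at 47.7%. The median over all 32851 windows of this length was 7 CG. Fewer CG than in the Oprd1 window were found in 97.4% of windows, and fewer than in the Oprm1 and Oprl1 windows in 38.0%.

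Oprl1 and Oprm1 were found in most nuclei, Oprd1 in a minority and Oprk1 in fewest. Oprl1 had a read in 250 of 316 retained nuclei, 79.1% (74.2 to 83.5%). Oprm1 had one in 244, 77.2% (72.2 to 81.7%). These are broad shares among genes. In the thinned counts of 295 nuclei, 80.0% of the 29252 genes with a read had a smaller share than Oprl1. For Oprm1 it was 78.6%. Oprd1 had a read in 91 nuclei, 28.8% (23.9 to 34.1%), and Oprk1 in 31, 9.81% (6.76 to 13.6%). The intervals of Oprl1 and Oprm1 overlapped, while those of Oprd1 and of Oprk1 overlapped with no other.

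At the fixed depth of 500000 reads the order was the same. There Oprl1 was found in 229 of 295 nuclei, 77.6% (72.4 to 82.3%), and Oprm1 in 221, 74.9% (69.6 to 79.8%). Oprd1 was found in 58, 19.7% (15.3 to 24.7%), and Oprk1 in 28, 9.49% (6.40 to 13.4%). Oprd1 was the receptor whose share moved most with depth, at 28.8% of retained nuclei without thinning.

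The reads behind these shares showed that most detections of Oprm1 and Oprl1 were not single reads. Nuclei with Oprm1 had 1 to 1880 reads of it, with a median of 75.5, and only 17 of the 244 had a single read. Nuclei with Oprl1 had 1 to 472 reads, with a median of 68, and 13 of the 250 had a single read. Most detections of both genes thus rested on more than 1 read. Without molecular identifiers, the number of molecules behind those reads is not known.

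Oprk1 was rare, but its detections were mostly not single reads either. Its 31 nuclei had 1 to 286 reads, with a median of 36, and 26 of them had at least 5. Oprd1 detections rested on fewer reads: 39 of its 91 nuclei had 1 read and the median was 2. The highest was 143, and 35 nuclei had at least 5. By that stricter count Oprd1 and Oprk1 were found in 11.1% and 8.23% of retained nuclei, so most of the gap between them came from nuclei with few Oprd1 reads.

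As levels, Oprm1 summed to 65.5 RPM (64.7 to 66.2) and Oprl1 to 49.9 RPM (49.2 to 50.5). Oprk1 summed to 3.43 RPM (3.27 to 3.60) and Oprd1 to 2.29 RPM (2.16 to 2.43). Over single nuclei, the level of Oprm1 had a lower quartile of 0.695, a median of 37.8, an upper quartile of 93.5 and a maximum of 573.7 RPM, and that of Oprl1 1.85, 33.6, 81.9 and 254.3 RPM. Oprm1 was the more uneven of this pair. Its 38 richest nuclei held at least 50% of its reads, against 51 nuclei for Oprl1. The same count was 7 nuclei for Oprd1 and 6 for Oprk1.

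Levels can be set between genes only per length. Per kilobase of merged exons, the level was 13.3 RPM for Oprl1, 8.15 for Oprm1, 0.569 for Oprd1 and 0.375 for Oprk1. Per kilobase of the whole gene it was 8.36 RPM for Oprl1, 0.234 for Oprm1, 0.194 for Oprk1 and 0.0678 for Oprd1. Oprl1 was highest and Oprm1 next on both scales, and the order of Oprk1 and Oprd1 turned. Whether reads in introns were counted is not given in the sources used here, so neither scale can be preferred.

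One receptor shares its place in the genome with other genes. Oprm1 overlaps Ipcef1 on the other strand over 152.4 kb, of which 96 bases are exonic in both, and Gm10945 over 3.26 kb with 0 shared exonic bases. The strand used in counting is not given in the sources used here, so reads of these pairs could be mixed, and Oprm1 is uncertain to that extent. Ipcef1 had a level of 3.80 RPM and was found in 20.3% of the 295 nuclei, against 74.9% for Oprm1, and the Spearman correlation of their reads over those nuclei was 0.23, a weak one. No other gene overlapped Oprl1, Oprk1 or Oprd1.

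**Figure D1:**
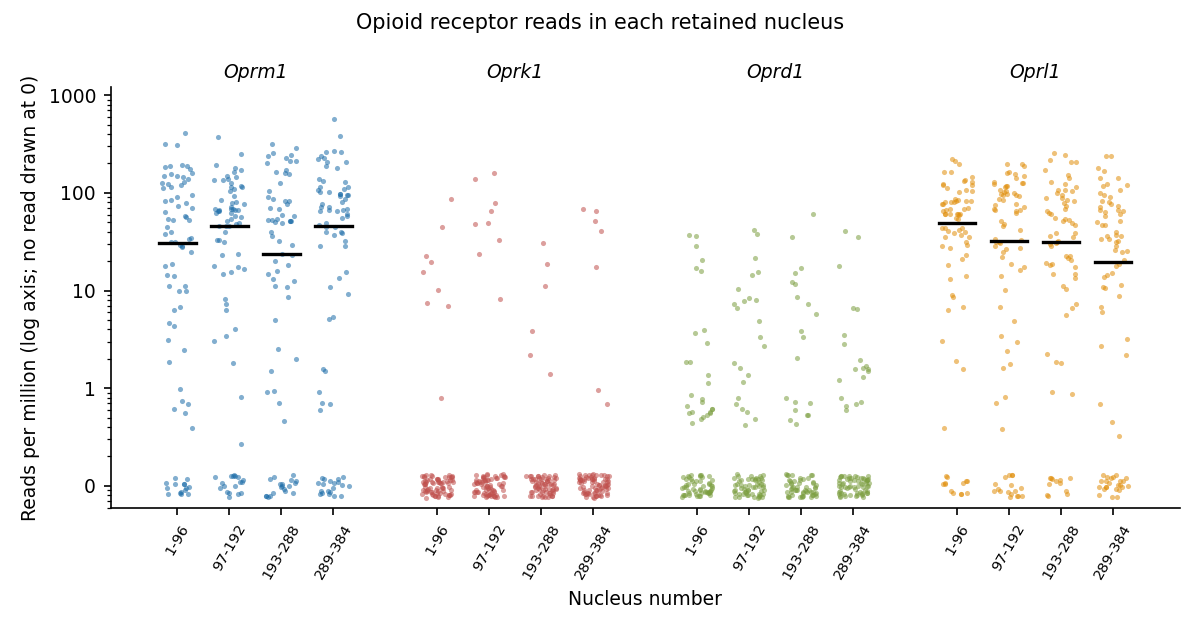
Reads of each receptor gene per 1000000 reads (RPM, log axis) in each of the 316 retained nuclei, 1 point a nucleus, by nucleus number in sets of up to 96; nuclei with no read are drawn at the bottom, spread for display, and black lines are medians where above 0. Oprm1 reaches 573.7 and Oprl1 254.3 RPM, and both have points in the upper range in all 4 number sets, while most nuclei have no read of Oprk1 or Oprd1.

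The detection of each receptor was spread over the collection. The labels number the nuclei, and sets of 96 consecutive numbers match the size of a plate, though no label says that a set is a plate. At 500000 reads, Oprm1 was found in 74.0, 76.3, 72.5 and 76.7% of nuclei in the 4 sets in number order. For Oprl1 the shares were 84.4, 76.3, 81.2 and 68.5%. They were 20.8, 22.4, 15.9 and 19.2% for Oprd1 and 10.4, 11.8, 8.70 and 6.85% for Oprk1. The intervals of all 4 sets overlapped for each receptor. Summed levels varied more: Oprm1 was at 63.1, 53.4, 62.2 and 85.7 RPM, and Oprk1 at 2.04, 7.31, 0.763 and 3.72 RPM.

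Nearly every nucleus had some opioid receptor, and most had several. At 500000 reads, 280 of 295 nuclei, 94.9% (91.8 to 97.1%), had a read of at least 1 receptor and 186, 63.1% (57.3 to 68.6%), of at least 2. Exactly 1 receptor was found in 94 nuclei, 2 in 124, 3 in 54 and all 4 in 8. The most frequent combination was Oprm1 with Oprl1 and no other, in 111 nuclei (37.6%). Oprl1 alone followed in 48 nuclei, Oprm1 alone in 44, Oprm1 with Oprd1 and Oprl1 in 38, and Oprm1 with Oprk1 and Oprl1 in 15. Oprd1 with Oprl1 alone was found in 7 nuclei, Oprm1 with Oprd1 alone in 4 and Oprk1 alone in 2. No nucleus had Oprd1 as its only receptor.

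**Figure D2:**
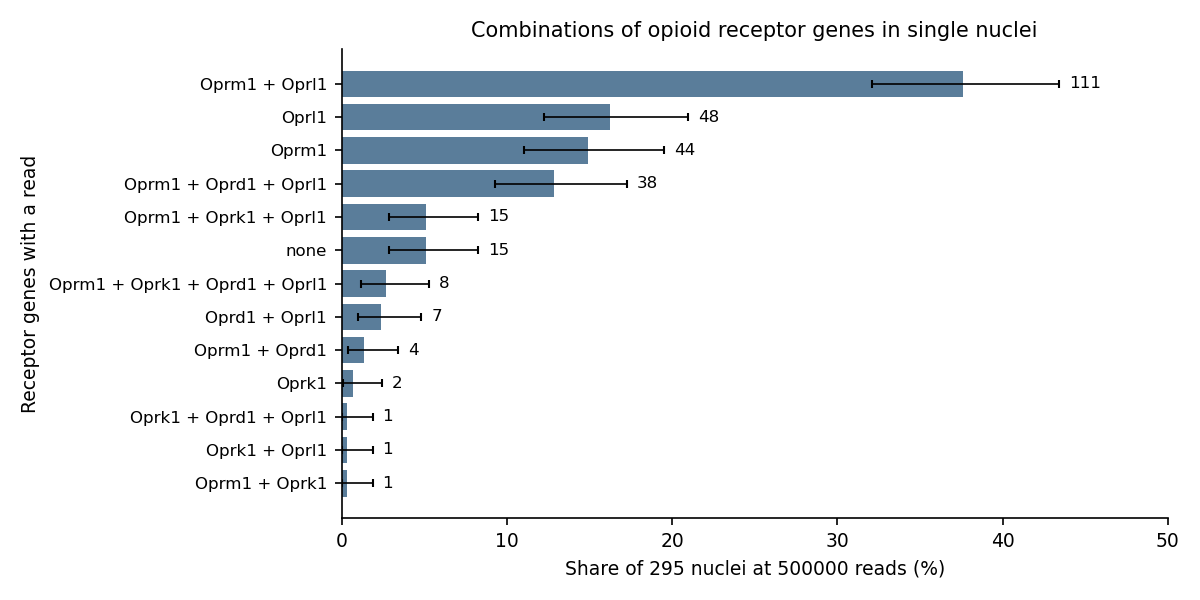
Share of the 295 nuclei at 500000 reads (horizontal axis, percent) with each combination of receptor genes; bars are shares, lines exact 95% intervals and the numbers at the right counts of nuclei. Oprm1 with Oprl1 leads with 111 nuclei, and combinations with Oprk1 or Oprd1 but neither Oprm1 nor Oprl1 hold 2 nuclei, both with Oprk1 alone.

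Oprm1 and Oprl1, each found in most nuclei, left few nuclei with neither. One or both were found in 278 of 295 nuclei, 94.2% (90.9 to 96.6%), both in 172, 58.3% (52.5 to 64.0%), and both with at least 5 reads each in 134, 45.4% (39.6 to 51.3%). All 58 nuclei with Oprd1 also had Oprm1 or Oprl1, as did 26 of the 28 with Oprk1, beside 94.2% of all 295 nuclei. The 17 nuclei with neither Oprm1 nor Oprl1 were still cholinergic by label and by gene: 16 of the 17 had a read of Chat, the gene of the acetylcholine-making enzyme. They had a median of 9452 genes with a read, against 10291.5 in the nuclei with either receptor, and the part of this difference in the result was not tested.

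No receptor pair met the limit used for differences, which genes found in few nuclei can hardly meet. A difference was counted where shares were at least 20 percentage points apart and the intervals did not overlap, and 0 of 12 ordered pairs of receptors met this. The background of this limit was low: among 20748 genes, 0.424% were higher and 0.0241% lower in nuclei with Oprm1 than in those without, 2.27% higher and 0.00964% lower with Oprl1, 0.79% higher and 0.00482% lower with Oprd1, and 0.496% higher and 0.13% lower with Oprk1. For the widely detected pair, Oprl1 was found in 77.8% (71.8 to 83.1%) of 221 nuclei with Oprm1 and in 77.0% (65.8 to 86.0%) of 74 nuclei without it. The difference was 0.80 points (-10.0 to 13.2), and the Spearman correlation of the reads of both genes over the 295 nuclei, which share 1 pool of tissue, was 0.03. The interval of the difference leaves room for either sign, and does not show that the receptors were independent.

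The rare receptors tended to lie in nuclei that had the others, below the limit. Oprl1 was found in 54 of 58 nuclei with Oprd1, 93.1% (83.3 to 98.1%), and in 175 of 237 without, 73.8% (67.8 to 79.3%). The intervals did not overlap and the difference, 19.3 points (8.01 to 27.1), was just under the limit. It was 3.89, 15.4, 22.4 and 39.0 points in the 4 number sets, positive in all 4, and passed the limit, at 24.8 and 21.0 points, without nuclei 1 to 96 or without nuclei 97 to 192. For Oprm1 the share was 86.2% (74.6 to 93.8%) of nuclei with Oprd1 and 72.2% (66.0 to 77.8%) without. Nuclei with Oprd1 had a median of 10622.5 genes with a read, against 10120 without it, and the part of this in the differences was not tested. Averaged within terciles of the number of genes, the Oprl1 difference was 15.5 points and the Oprm1 difference 12.0. Taken the other way, Oprd1 was found in 23.6% (18.2 to 29.6%) of nuclei with Oprl1 and in 6.06% (1.68 to 14.8%) without, with intervals apart. That difference, 17.5 points, reached 20.7 points and passed the limit with 1 number set left out. Oprd1 was found in 22.6% (17.3 to 28.7%) of nuclei with Oprm1 and in 10.8% (4.78 to 20.2%) without, with intervals that overlapped.

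Nuclei with Oprk1 had higher shares of the other 3 genes, by differences whose intervals all include 0. Oprm1 was found in 85.7% (67.3 to 96.0%) of 28 nuclei with Oprk1 and in 73.8% (68.1 to 79.0%) of 267 without it. The Oprl1 share was 89.3% (71.8 to 97.7%) with and 76.4% (70.8 to 81.4%) without. That of Oprd1 was 32.1% (15.9 to 52.4%) with and 18.4% (13.9 to 23.5%) without. The number of genes per nucleus was close here, with medians of 10330 with Oprk1 and 10226 without.

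Few other genes went with the detection of Oprm1. Of 20748 genes, 88 were found in a higher and 5 in a lower share of nuclei with Oprm1 than without. Those with the largest differences were the long noncoding or unannotated genes Gm29478 and AC101677.2, with Fgd5, an exchange factor for the small GTPase Cdc42, Tecrl, and Cdh9, a cadherin of cell adhesion. Fgd5 was found in 80.5% (74.7 to 85.5%) of nuclei with Oprm1 and in 51.4% (39.4 to 63.1%) without. Cdh9 was found in 72.4% (66.0 to 78.2%) with and in 45.9% (34.3 to 57.9%) without. The 5 lower genes were Gm42715, 1700013M08Rik, Gm16638, A130010J15Rik and Elac1, a tRNA-processing enzyme found in 57.5% with Oprm1 and in 78.4% without. Of the 93 differences in all, 33 still reached the limit in size when averaged within terciles of the number of genes per nucleus. Only genes that had passed were counted again, without intervals, so the number could not rise. Its fall alone is thus not read as an effect of the number of genes.

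Oprl1 had the most genes going with it, 472 higher and 2 lower, and its nuclei also had more genes, with medians of 10429 in those with Oprl1 and 9529 in those without. The largest differences were Dpagt1, the enzyme that starts N-glycan synthesis, found in 71.6% (65.3 to 77.4%) of nuclei with Oprl1 and in 37.9% (26.2 to 50.7%) without, and Acyp1, an acylphosphatase, found in 59.4% (52.7 to 65.8%) with and in 27.3% (17.0 to 39.6%) without. Rab4a, a GTPase of endosome recycling, Prdx4, a peroxiredoxin, and Dgcr6 followed. The 2 lower genes were Gm2974 and Gxylt2. Of the 474 differences, 157 still reached the limit in size within terciles of the number of genes, a count that again could not rise.

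For Oprk1, 103 genes were higher and 27 lower. Dpy19l1, a C-mannosyltransferase family gene, was found in 85.7% (67.3 to 96.0%) of 28 nuclei with Oprk1 and in 43.1% (37.1 to 49.2%) without, followed by Mrpl2, of the mitochondrial ribosome, Ccdc126, 4930563F08Rik and Casz1, a zinc finger transcription factor found in 75.0% with and in 40.8% without. Stn1, of a telomere-binding complex, Lemd1, A130051J06Rik, Tmem26 and Klhdc8b were lower, Stn1 at 25.0% (10.7 to 44.9%) with Oprk1 and 60.7% (54.5 to 66.6%) without. For Oprd1, 164 genes were higher and 1 lower. Nmnat1, which makes NAD in the cell nucleus, was found in 53.4% (39.9 to 66.7%) of nuclei with Oprd1 and in 21.9% (16.8 to 27.8%) without, and Car8, a carbonic anhydrase-related protein that binds an IP3 receptor, in 58.6% (44.9 to 71.4%) with and in 28.7% (23.0 to 34.9%) without. Ccdc126, Gm19409 and Lcp1, an actin-bundling protein, completed the leading 5, and Flt3l, a cytokine, was the lower gene. Within terciles of the number of genes, 120 of 130 differences still reached the limit in size for Oprk1, and 67 of 165 for Oprd1. These counts could not rise either. Ccdc126 was among the leading 5 for both Oprk1 and Oprd1.

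The genes closest to each receptor in level differed in kind. By Spearman correlation of thinned reads over the 295 nuclei, among genes found in at least 20% of them, Oprm1 was closest to Mgat4c (0.40) and Galnt18 (0.38), enzymes that add sugars to proteins, Ptprd (0.36), a receptor phosphatase of synapses, Trpv1 (0.33), the capsaicin receptor channel, and AC131720.1 (0.32). Oprl1 was closest to Bsg (0.41), a cell-surface glycoprotein, Cfl1 (0.39), cofilin, Gstp1 (0.38), a glutathione transferase, Atp5h (0.37), of the mitochondrial ATP synthase, and Pgp (0.37), a phosphatase. For Oprd1 the closest were Nmnat1 (0.298), Car8, Ido2, Asb4 and Tfeb, and for Oprk1 Mpped2 (0.26), 4930563F08Rik, Pmepa1, Dpy19l1 and Relt, all of them under 0.3 and read as no likeness in counts this sparse.

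Gene length set the neighbours of Oprl1 apart from those of Oprm1, a pattern that was looked at after these genes were seen. The 5 genes closest to Oprl1 span 7.48 kb (Bsg), 4.75 kb (Cfl1), 2.58 kb (Gstp1), 4.27 kb (Atp5h) and 2.72 kb (Pgp), close to the 5.97 kb of Oprl1. Of those closest to Oprm1, Mgat4c spans 710.0 kb, Galnt18 308.3 kb, Ptprd 2270.7 kb and Trpv1 27.0 kb, beside 279.7 kb for Oprm1. The 100 genes closest to Oprl1 had a median length of 8.92 kb, the 100 closest to Oprm1 130.3 kb, those of Oprd1 57.6 kb and those of Oprk1 35.9 kb, against 32.5 kb over all genes ranked. Across 14014 genes, which are not independent replicates, likeness to Oprl1 was lower for longer genes (Spearman -0.52), while likeness to Oprm1 (0.04), Oprd1 (0.07) and Oprk1 (0.00) showed no such trend.

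The same axis showed in the nuclei themselves. Genes over 100 kb took 20.6 to 64.8% of a nucleus' reads, with a median of 52.3%. In the tercile of nuclei with the lowest such share, Oprl1 was found in 88 of 98, 89.8% (82.0 to 95.0%), in the middle one in 74 of 98, 75.5% (65.8 to 83.6%), and in the highest in 67 of 99, 67.7% (57.5 to 76.7%). The Oprm1 shares were 72.4, 70.4 and 81.8% in the same order, with intervals that overlapped. Those of Oprd1 were 23.5, 19.4 and 16.2%, and those of Oprk1 13.3, 8.16 and 7.07%, also with overlapping intervals. The correlation of Oprl1 reads with the long-gene share was -0.30, and it was not peculiar to Oprl1: of 2622 genes of up to 10 kb, the median was -0.22 and 36.1% had a lower value. Within terciles of the long-gene share, the Oprl1 share in nuclei with Oprm1 exceeded that in nuclei without by 2.93 points.

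**Figure D3:**
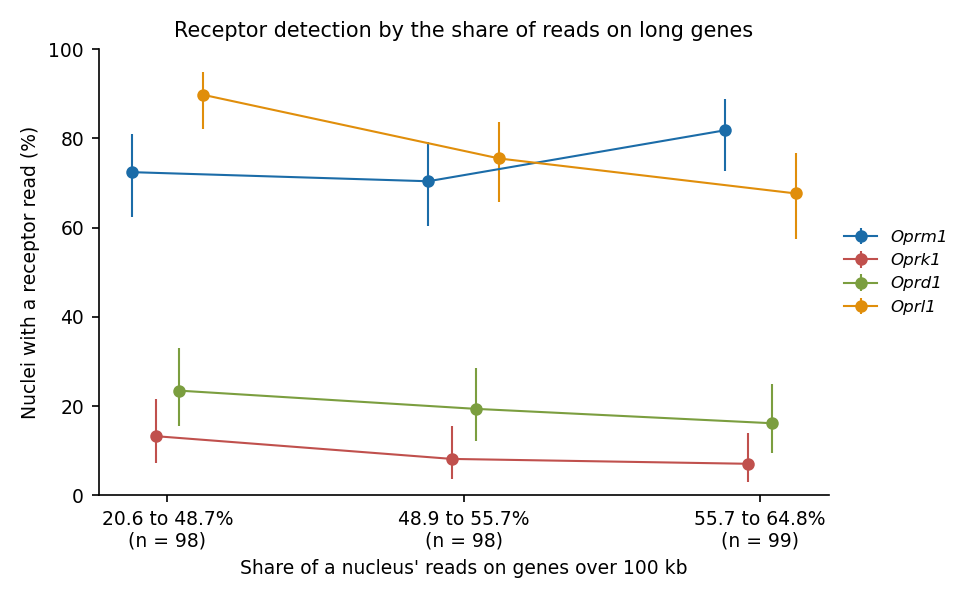
Share of nuclei with a read of each receptor gene (vertical axis, percent, exact 95% intervals) in terciles of the 295 nuclei by the share of their reads on genes over 100 kb (horizontal axis). Oprl1 is found in 89.8% of nuclei in the lowest tercile and in 67.7% in the highest, with intervals apart, and the intervals of the other receptors overlap.

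Reads of the precursors of the opioid peptides were found in a minority of the nuclei. At 500000 reads, the enkephalin precursor Penk was found in 52 of 295 nuclei (17.6%), the dynorphin precursor Pdyn in 37 (12.5%), Pomc in 29 (9.83%) and the nociceptin precursor Pnoc in 18 (6.10%), and at least 1 of the 4 in 104. Penk and Pdyn shared 21 nuclei, 21 of the 52 with Penk and 21 of the 37 with Pdyn. Their levels were unlike: Penk reached 1399 and Pdyn 1176 reads in a retained nucleus, but Pomc only 28 and Pnoc only 32.

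Of 16 comparisons of a receptor between nuclei with and without a precursor, 0 passed the limit. Among all genes tested, 0.227% were higher and 0.154% lower with Penk, 0.747% higher and 0.41% lower with Pdyn, 0.699% higher and 0.13% lower with Pnoc, and 0.496% higher and 0.0482% lower with Pomc. Oprm1 was found in 75.0% (65.6 to 83.0%) of the 104 nuclei with any precursor and in 74.9% (68.1 to 80.9%) of the 191 without, where 0.106% of genes were higher and 0.00964% lower. Oprl1 was found in 83.7% (75.1 to 90.2%) with and in 74.3% (67.5 to 80.4%) without, a difference of 9.31 points (-1.14 to 18.7).

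Reads of Pdyn and of the dynorphin receptor gene were not found in 1 nucleus together. Oprk1 had a read in 0 of 37 nuclei with Pdyn, which allows a share of up to 9.49%, and in 28 of 258 nuclei without it, 10.9% (7.33 to 15.3%). Without thinning it was 0 of 43 with Pdyn, up to 8.22%, and 31 of 273 without. All 4 number sets had 0 nuclei with both, of 8, 8, 10 and 11 with Pdyn. The intervals overlapped, so at this number of nuclei co-detection was not observed rather than shown to be absent, and 0 of 295 nuclei with both allows a share of up to 1.24%. The difference was -10.9 points (-15.3 to -0.73). Pdyn was itself found in 0 of 24 somatic motor-like nuclei, the class in which Oprk1 had its higher share. Among visceral motor-like nuclei alone, Oprk1 was found in 0 of 37 with Pdyn and in 9.40% of 234 without.

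The other matched pairs of precursor and receptor did occur in single nuclei. Penk and Oprd1 shared 11 of 295 nuclei, 3.73% (1.88 to 6.57%), and Penk and Oprm1 35, 11.9% (8.40 to 16.1%). Pomc and Oprm1 shared 25, 8.47% (5.56 to 12.3%), and Pnoc and Oprl1 16, 5.42% (3.13 to 8.66%). With at least 5 reads of each gene, 25 nuclei had Penk and Oprm1, 6 Pomc and Oprm1, 3 Penk and Oprd1 and 1 Pnoc and Oprl1. The pairs with Pomc and Pnoc thus rested mostly on few reads of the precursor.

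Oprk1 had a higher share in nuclei with Penk, below the limit. It was found in 10 of 52 nuclei with Penk, 19.2% (9.63 to 32.5%), and in 18 of 243 without, 7.41% (4.45 to 11.4%), at 8.83 and 2.38 RPM. The intervals overlapped and the difference was 11.8 points (1.40 to 25.5). The level of Penk was 149.2 RPM in the somatic and 21.9 RPM in the visceral class, and among visceral motor-like nuclei alone Oprk1 was found in 11.1% of 45 with Penk and in 7.52% of 226 without. Oprm1 was found in 67.3% (52.9 to 79.7%) with Penk and in 76.5% (70.7 to 81.7%) without, but without thinning in 78.9% of 57 nuclei with Penk and in 76.8% of 259 without. With Pomc it was found in 86.2% (68.3 to 96.1%), against 73.7% (68.0 to 78.9%) without. Oprl1 was found in 88.9% (65.3 to 98.6%) of 18 nuclei with Pnoc and in 76.9% (71.5 to 81.7%) without. That difference was 12.0 points, between 5.43 and 24.7 with a number set left out. With both genes counted from 5 reads it was -49.7 points, but few nuclei then had Pnoc and only 1 had both. That value is too thinly based to be read as a reversal. None of these intervals was apart from its counterpart.

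Among 14 other peptide genes with enough nuclei on both sides, Oprm1 differed with 2, and the other 3 receptors with none. That is 1 higher and 1 lower of 56 comparisons, where 1.07% of all genes were higher and 0.678% lower with these peptides, so the count is near the background and both differences are given as values of these nuclei. Oprm1 was found in 51 of 55 nuclei with Nppb, the precursor of brain natriuretic peptide, 92.7% (82.4 to 98.0%), and in 170 of 240 without, 70.8% (64.6 to 76.5%), at 81.5 and 61.5 RPM. The difference was 21.9 points (10.1 to 30.0) and was 14.3, 31.0, 21.9 and 17.9 points in the 4 number sets. It fell under the limit without nuclei 97 to 192, at 17.8 points, and without thinning, at 16.6 points.

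Oprm1 was found less often with Grp, the precursor of gastrin-releasing peptide: in 13 of 28 nuclei with Grp, 46.4% (27.5 to 66.1%), and in 208 of 267 without, 77.9% (72.4 to 82.7%), at 28.5 and 69.2 RPM. The difference was -31.5 points (-51.0 to -11.0). By number set, Oprm1 was found in 3 of 6, 2 of 9, 2 of 5 and 6 of 8 nuclei with Grp, and the difference was -26.1, -61.4, -35.0 and -1.92 points. Without nuclei 97 to 192 it was -18.1 points and no longer passed the limit. The number of genes per nucleus was close between the sides, and within its terciles the difference was -32.0 points with Grp and 23.1 with Nppb. Oprl1 was found in 59.1% (36.4 to 79.3%) of 22 nuclei with Sst, the somatostatin precursor, and in 79.1% (73.8 to 83.8%) without, with intervals that overlapped. Within terciles of the number of genes, that difference was -9.72 points.

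**Figure D4:**
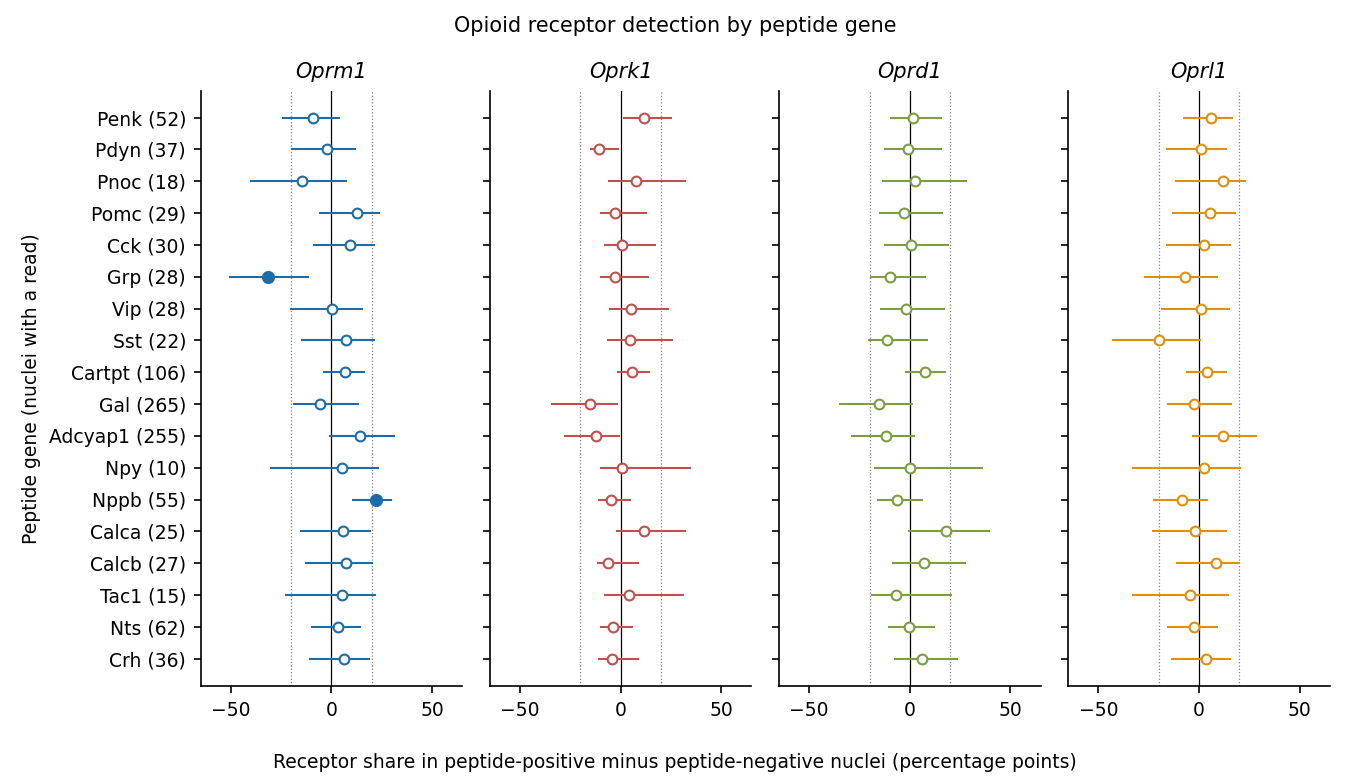
Difference in the share of nuclei with each receptor gene between nuclei with and without each peptide gene (horizontal axis, percentage points, lines 95% intervals), for 4 opioid precursors and 14 other peptide genes; numbers beside the names count nuclei with the peptide, dotted lines mark 20 points and filled points passed the limit. Only Oprm1 has filled points, at 21.9 with Nppb and at -31.5 with Grp.

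The somatic motor-like nuclei, a set of 24 that stood apart by cluster, had more frequent Oprk1 and Oprd1 reads, below the limit. Chat was found in 95.8% of them and in 97.4% of the 271 visceral motor-like nuclei. The 6 somatic motor markers were used to name the class, so their higher shares are partly set by the naming. Among them, Calca, the CGRP precursor of somatic motor neurons, was found in 62.5% and 3.69%. The others were Sv2b at 95.8% and 68.6%, Lhx4 at 54.2% and 17.3%, Chodl at 41.7% and 8.49%, Mnx1 at 29.2% and 1.85%, and Lhx3 at 4.17% and 2.95%. Between these classes 1.81% of 20749 genes were higher and 2.99% lower, and 0 of the 4 receptors passed. The delta receptor gene Oprd1 was found in 9 of 24 nuclei of the somatic class, 37.5% (18.8 to 59.4%), and in 49 of 271 of the visceral class, 18.1% (13.7 to 23.2%), at 7.50 RPM (6.67 to 8.40) and 1.81 RPM (1.68 to 1.94). Oprk1 was found in 6 of 24, 25.0% (9.77 to 46.7%), and in 22 of 271, 8.12% (5.16 to 12.0%), at 12.6 RPM (11.5 to 13.8) and 2.61 RPM (2.46 to 2.77). The intervals of the shares overlapped for both, and those of the levels, which cover reads and not nuclei, did not.

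The widely detected receptors had similar shares in both classes. Oprm1 was found in 75.0% (53.3 to 90.2%) of somatic and 74.9% (69.3 to 80.0%) of visceral motor-like nuclei, and Oprl1 in 75.0% (53.3 to 90.2%) and 77.9% (72.4 to 82.7%). The intervals of these differences, -22.2 to 16.3 points for Oprm1 and -25.1 to 13.3 for Oprl1, are wide. Peptide genes that differed between the classes divided Oprd1 in the direction of the classes, with Cck by little. They also did so for Oprk1, by little with Cck, except for Calcb, which went the other way. Oprk1 was found in 7.92% of 265 nuclei with Gal, the galanin precursor, and in 23.3% of 30 without, but in 3.70% of 27 nuclei with Calcb, another CGRP precursor, and in 10.1% of 268 without. Its share was 20.0% of 25 nuclei with Calca and 8.52% without, and 10.0% of 30 nuclei with Cck, the cholecystokinin precursor, and 9.43% without. Oprd1 was found in 36.0% of nuclei with Calca and in 18.1% without, in 25.9% with Calcb and in 19.0% without, in 20.0% with Cck and in 19.6% without, and in 18.1% with Gal and in 33.3% without. With Adcyap1, Oprk1 was found in 7.84% of 255 nuclei and Oprd1 in 18.0%, and without it in 20.0% and 30.0% of 40. With Nppb, Oprk1 was found in 5.45% of 55 nuclei and Oprd1 in 14.5%, and without it in 10.4% and 20.8% of 240. Each of these differences was under the limit, and the intervals of each pair of shares overlapped.

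Across the 11 clusters of visceral motor-like nuclei, which were built without any listed gene, no receptor passed the limit set for clusters, 40 points between the highest and the lowest with intervals apart. In comparison, 24.8% of all genes did. Oprm1 ran between 89.5% (66.9 to 98.7%) of 19 nuclei in cluster 8 and 56.2% (37.7 to 73.6%) of 32 in cluster 4, a range of 33.2 points. Oprl1 ran between 96.6% (82.2 to 99.9%) of 29 nuclei in cluster 3 and 60.5% (43.4 to 76.0%) of 38 in cluster 1, a range of 36.0 points with intervals apart, and of 20.6 points without thinning. The Oprl1 shares, high to low, followed clusters 3, 8, 5, 9, 11, 4, 2, 6, 10, 7 and 1, and the Oprm1 shares clusters 8, 2, 1, 11, 7, 5, 9, 3, 10, 6 and 4. All 10 pairs of neighbours in each order had overlapping intervals. A smaller range than that of Oprl1 was found for 61.6% of genes, and a smaller one than that of Oprm1 for 55.9%.

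Oprd1 ran between 34.4% (18.6 to 53.2%) of 32 nuclei in cluster 2 and 0 of 19 in cluster 9, which allows up to 17.6%, a range of 34.4 points. Cluster 2 also had the highest median number of genes, and Atf3, a gene induced by nerve injury and stress, among its leading genes. Over its nuclei before thinning, the mean share was 94.4% over neuronal, 71.3% over cholinergic and 53.3% over visceral motor markers, the lowest of the 11 clusters, and 50.0% over astrocyte, 34.0% over inhibitory, 25.6% over microglial and 22.2% over oligodendrocyte precursor markers, the highest of the 11. The part of any of these in the Oprd1 and Oprk1 shares was not tested. Without thinning the Oprd1 range was 48.3 points, between 53.3% and 5.00%, and passed. The highest share was then in another cluster than cluster 2. Oprk1 ran between 15.6% (5.28 to 32.8%) in cluster 2 and 0 of 19 in cluster 8, and its range of 15.6 points was larger than that of 14.9% of genes. In levels, Oprm1 was highest in cluster 10, at 117.0 RPM, and cluster 8, at 113.4 RPM, and lowest in cluster 3, at 37.0 RPM. Oprl1 was highest in cluster 8, at 81.5 RPM, and lowest in cluster 7, at 26.9 RPM.

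**Figure D5:**
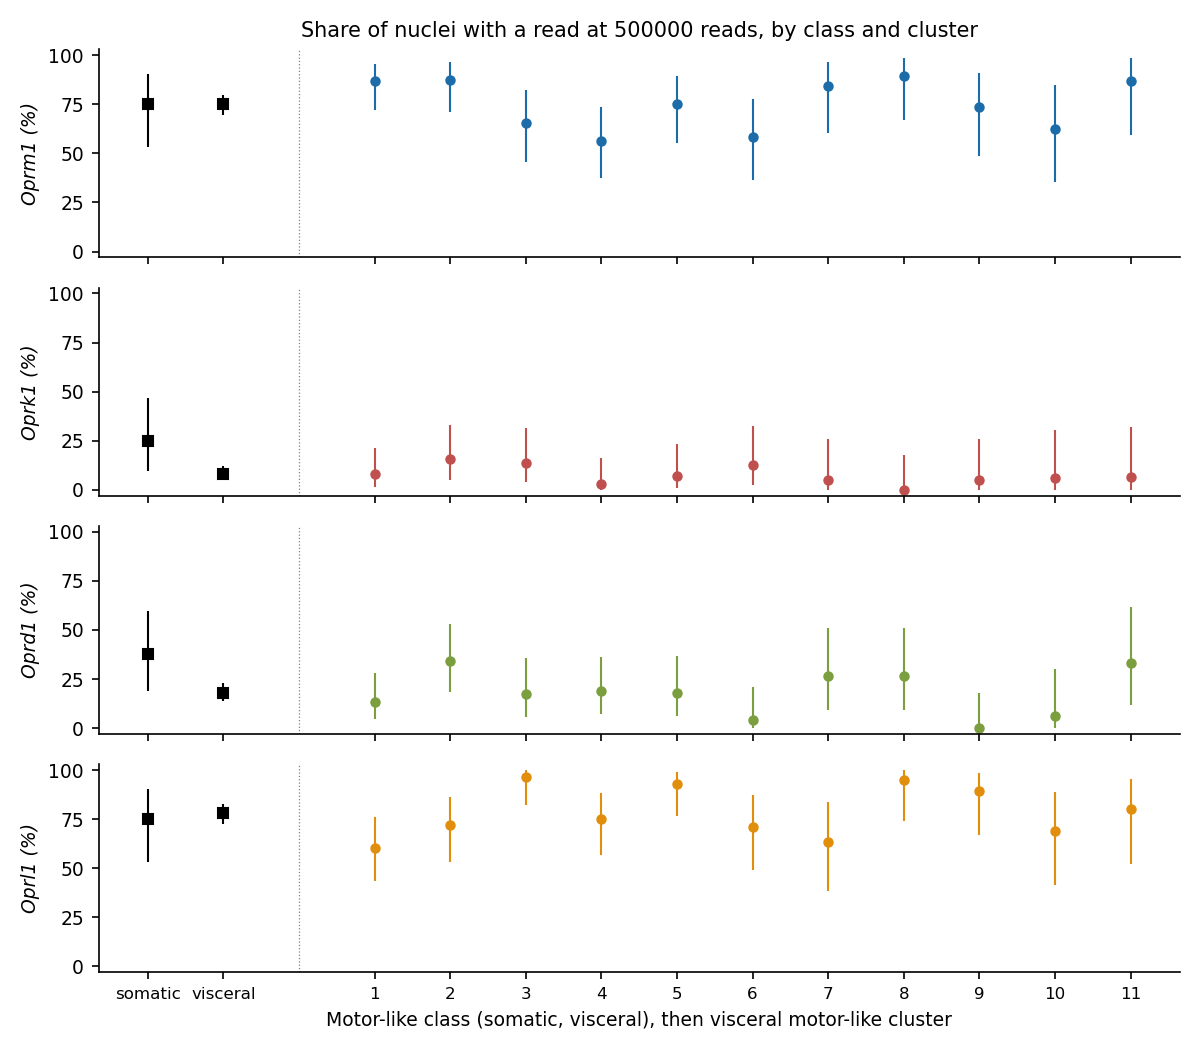
Share of nuclei at 500000 reads with each receptor gene (vertical axis, percent, exact 95% intervals) in somatic and visceral motor-like nuclei (squares) and in the 11 visceral motor-like clusters (circles). Oprk1 and Oprd1 are at 25.0% and 37.5% in the somatic motor-like class and at 8.12% and 18.1% in the visceral one with overlapping intervals, and Oprm1 and Oprl1 lie above 50% in all 11 clusters.

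The genes through which these receptors act were present in most nuclei. All 13 listed Gi/o G protein subunits were found in over 50% of the 295 nuclei, between 50.2% for Gng7 and 100.0% for Gnb1, with Gnao1, the Go alpha subunit, in 99.7%. Of 4 GIRK subunits, Kcnj3 was found in 96.6%, Kcnj6 in 88.1%, Kcnj9 in 70.2% and Kcnj5 in 27.5%. All 4 calcium channel genes were found in at least 99.7%, among them Cacna1b, the N-type channel. Adenylyl cyclases were above 50% in 6 of 8 cases, between 49.2% for Adcy1 and 99.0% for Adcy2. The receptor kinases and arrestins, which silence and internalise bound receptors, were above 50% in 6 of 6, between 64.7% for Grk6 and 98.3% for Arrb1.

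Proteins that shorten the signal and process the peptides were more mixed. Of 14 RGS genes, which speed the switching-off of G proteins, 10 were found in over 50% of nuclei, between 5.08% for Rgs16 and 100.0% for Rgs7. Of 8 genes for precursor processing and peptide breakdown, 6 were, with Cpe and Npepps in 100.0% and Anpep in 16.9%. Among other binders of opioids, Ackr3, a scavenger of opioid peptides, was found in 5.42%. Oprm1 and Oprl1 were frequent for receptors of their kind: of 13 other Gi/o-coupled peptide and cannabinoid receptors, only Cnr1, the CB1 receptor, in 74.6%, and Npy2r, in 54.6%, were found in over 50% of nuclei, and the lowest, Npbwr1, in 0.339%. Other peptide genes lay between 0.339% for Trh and 89.8% for Gal.

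Few of these genes passed the limit between nuclei with and without a receptor, and those found in nearly all nuclei can hardly meet it. Among all genes, 0.424, 0.496 and 0.79% were higher and 0.0241, 0.13 and 0.00482% lower with Oprm1, Oprk1 and Oprd1, in that order. Of 89 listed genes tested for each receptor, 0 passed in either direction with any of these, which is near that background. With Oprl1, 3 were higher and 0 lower, beside 2.27% higher among all genes: Rgs10 in 59.8% (53.2 to 66.2%) with Oprl1 and 31.8% (20.9 to 44.4%) without, Rgs19 in 56.3% (49.6 to 62.9%) and 30.3% (19.6 to 42.9%), and Sstr2, a somatostatin receptor, in 36.2% (30.0 to 42.8%) and 13.6% (6.43 to 24.3%). The median difference over the listed genes was 0.57 points with Oprm1, 0.32 with Oprk1, 1.54 with Oprd1 and 2.90 with Oprl1, against 2.21, 1.15, 3.05 and 3.31 over all genes tested. Listed genes found in nearly all nuclei can hardly differ, so these medians are not read as a result about the lists.

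Some of the listed genes differed between the motor-like classes. Those that passed were Adcy1 and Adcy8, calcium-stimulated adenylyl cyclases found in 100.0% of somatic motor-like nuclei for both, against 44.6% and 45.4% of visceral ones. Rgs4 was found in 83.3% and 32.1%. Lower in somatic motor-like nuclei were Cnr1, at 33.3% and 78.2%, Npy2r, at 4.17% and 59.0%, Sstr5, at 0 of 24 nuclei, which allows up to 14.2%, and 52.0%, Rgs9, at 41.7% and 95.9%, Grk3, at 66.7% and 96.7%, Gnb4, at 62.5% and 88.2%, and Pcsk1, a precursor-cutting protease, at 37.5% and 92.3%. Of the peptide genes, Calca, Calcb and Cck were higher and Gal, Adcyap1 and Nppb lower, though Calca was itself a marker used to name the classes. Of the other Gi/o-coupled receptors, 3 of the 8 tested were thus lower, beside 2.99% of all genes. Among the opioid receptors, Oprd1 differed by 19.4 points (0.03 to 41.8) and Oprk1 by 16.9 points (1.16 to 38.8). Neither met the limit: both differences were too small, and the intervals of the shares in the classes overlapped. Only 24 nuclei were somatic motor-like.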

How the data were processed

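Each library was 1 nucleus, made with the Smart-seq2 protocol with 22 amplification cycles and no molecular identifiers, per the labels' protocols. The deposited table holds raw read counts per gene symbol, not normalised by the authors. Per the submitters' processing notes, the build was GRCm38 and the tools bcl2fastq, STAR, Picard, edgeR and Seurat 3, given without roles. The sources used here give neither the annotation nor the counting mode nor the strand. Wells held single sorted nuclei, and doublets were not called.

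Nuclei with a read on at least 1000 genes were retained, none of them had over 10% mitochondrial reads, and 21 of the 316 had under 500000 reads and were left out of thinned comparisons. Thinning drew reads at random without replacement. A gene was tested where found in at least 5% of thinned nuclei, with at least 8 nuclei on both sides. Nuclei were clustered with scanpy 1.11.5 (counts per 10000, log of 1 plus the value, 2000 variable genes, 15 components, 10 neighbours, Leiden resolution 1). Listed, mitochondrial and ribosomal protein genes were left out, both for all retained nuclei and for the visceral motor-like ones alone. Other steps used Python 3.11.15, numpy 2.4.6, pandas 2.3.3 and scipy 1.17.1, and the comparison of shares was tested on simulated data. Gene spans, exons and overlaps came from GENCODE vM21 on GRCm38. The intervals of differences combine both exact intervals.

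Named beside the receptors and precursors were the 5 genes most alike to each receptor in level, the 5 with the largest differences in each direction, listed genes that passed, and list extremes. Other list members and markers given as examples were chosen after their values were seen. The gene with the highest share in 1 list is not reported here. The members and lists were chosen with earlier results of these data known. Nuclei of 1 pool are not replicate animals. Alternatives were thinning, read limits, nucleus filters, leaving out number sets, clustering settings, terciles of genes per nucleus and scales of length.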

Additional observations from a re-analysis of the deposited data

How the results depend on the processing

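The 54 results were recomputed under 434 alternatives in all. Counting a receptor only from 5 reads gave 65.1% for Oprm1, 68.8% for Oprl1 and 7.46% for Oprd1. Oprd1 was found in 28.8% without thinning, in 13.7% at 250000 reads and in 11.9% from 2 reads. From 5 reads, the difference with Pnoc was -49.7 points for Oprl1 and -7.59 for Oprk1, and that of Oprd1 with Oprl1 was 2.94. Few nuclei then had Pnoc. Oprm1 with Nppb was at 16.6 points without thinning. The range over clusters without thinning was 48.3 points for Oprd1 and 20.6 for Oprl1. At a limit of 30 points, 1, 23, 2 and 10 genes passed for Oprm1, Oprk1, Oprd1 and Oprl1, in place of 93, 130, 165 and 474, as a stricter limit must give. Within terciles of genes per nucleus, 33 genes for Oprm1, 67 for Oprd1 and 157 for Oprl1 still reached the main limit in size. Only genes that had passed it were counted again, so these numbers could not rise either. The cause of the other changes was not tested.

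Leaving out 1 number set in turn moved the difference of Oprm1 with Grp between -43.2 and -18.1 points, of Oprm1 with Nppb between 17.8 and 24.5, of Oprl1 with Pnoc between 5.43 and 24.7, of Oprl1 with Oprd1 between 12.8 and 24.8 and of Oprd1 with Oprl1 between 13.0 and 20.7. Leaving out visceral motor-like cluster 2, chosen after seeing the data, changed no call. No paired analysis was possible because the nuclei form 1 group. Oprd1 shares depend on depth and on the reads required, and some sets were small: 24 somatic motor-like nuclei, 28 with Oprk1 and 18 with Pnoc.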

Other observations

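Few receptor reads came from the 67 nuclei left out, whose median depth was 2328 reads: 2 nuclei had Oprm1, 1 Oprk1, 0 Oprd1 and 1 Oprl1, each with a single read. A count of 3 nuclei would be 4.48% of them.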
